A study of Homo sapiens with 12 samples.

Results

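ADARB2, PITHD1, NEDD4, APMAP, PDE4B and C5 are 6 of the 60668 genes in a table of raw counts from 12 RNA-seq libraries. They were chosen because they were among the largest rises in H1299 cells after knockdown of HDAC2, at a mean of 5 CPM or more (CPM are read counts scaled to the size of the library). Their rise in H1299 is therefore the reason for their choice and is given as a description with no test. The rule of the choice did not use PANC-1, so tests are given there. Earlier results of these data were known when the 6 were chosen, so these tests may not be independent of the choice. The 4 groups of 3 libraries were H1299 cells, labelled as lung adenocarcinoma, with an shRNA against HDAC2 (numbered sh1 in the labels) or with scrambled shRNA, and PANC-1 cells, labelled as pancreatic adenocarcinoma, with an shRNA against FOSL1 (numbered sh2) or with scrambled shRNA. A short hairpin RNA (shRNA) is processed in the cell to a small RNA that pairs with its target mRNA and lowers it. For FOSL1 hairpins the study describes delivery by virus and selection with puromycin in both lines, and it does not describe the HDAC2 hairpin. The controls of both lines carry a scrambled hairpin and are labelled WT. Each knockdown rests on 1 hairpin, so an effect of the loss of the target and of the hairpin itself cannot be told apart. The labels call the replicates biological, and the sources used here do not say whether they were transduced separately, so p-values measure the spread between these libraries.

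HDAC2 is a class I histone deacetylase that takes acetyl groups off histones and works inside co-repressor complexes such as NuRD, SIN3 and CoREST, and FOSL1 is a subunit of the transcription factor AP-1. The 6 genes have different known roles. ADARB2 (ADAR3) is the brain-enriched, catalytically inactive relative of the enzymes that edit adenosine to inosine in double-stranded RNA. NEDD4 is a HECT-type E3 ubiquitin ligase, which marks membrane and signalling proteins for uptake and breakdown. PDE4B is a phosphodiesterase that degrades the second messenger cAMP. C5 is the complement protein whose cleavage gives the inflammatory peptide C5a and the fragment that starts the membrane attack complex, and most of it in blood is made by the liver. APMAP is a membrane glycoprotein first described in adipocytes, with a fold like that of the paraoxonases. PITHD1 carries a PITH domain, which it shares with the proteasome-associated thioredoxin TXNL1.

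The genes lie on 5 chromosomes, with PITHD1 (ENSG00000057757.10, 23778418 to 23788232) and PDE4B (ENSG00000184588.18, 65792514 to 66374579) on the plus strand of chromosome 1 of GRCh38. The other members are on minus strands: NEDD4 (ENSG00000069869.16) on chromosome 15 from 55826922 to 55993660, APMAP (ENSG00000101474.12) on chromosome 20 from 24962925 to 24992751, C5 (ENSG00000106804.7) on chromosome 9 from 120932987 to 121075195, and ADARB2 (ENSG00000185736.16) on chromosome 10 from 1177313 to 1737525. Their spans ranged from 9815 bp for PITHD1 to 582066 bp for PDE4B. The bases just before the start of the MANE Select transcript, the agreed reference transcript of a gene, are shown for the 5 genes whose level differed between the PANC-1 groups, so that the shared and the differing rises can be set beside their promoters. They are RefSeq sequences of GRCh38.p14, and the 6 genes had 1 to 6 RefSeq starts each, among which gene counts cannot tell. Capitals mark matches on either strand to any of 9 motifs, which were chosen with the genes known. All windows end at the base before the start, except that of NEDD4, where the last 48 bases lie in an exon of another transcript and are left out. That of C5 lies inside the span of longer C5 transcripts.
PITHD1 (chr1:23778168-23778417, plus strand): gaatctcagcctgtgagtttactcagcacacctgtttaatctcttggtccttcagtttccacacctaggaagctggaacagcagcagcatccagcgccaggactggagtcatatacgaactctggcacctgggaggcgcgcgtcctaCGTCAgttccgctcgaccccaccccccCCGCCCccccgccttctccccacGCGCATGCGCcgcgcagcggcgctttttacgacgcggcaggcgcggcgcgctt
APMAP (chr20:24992752-24993001, minus strand): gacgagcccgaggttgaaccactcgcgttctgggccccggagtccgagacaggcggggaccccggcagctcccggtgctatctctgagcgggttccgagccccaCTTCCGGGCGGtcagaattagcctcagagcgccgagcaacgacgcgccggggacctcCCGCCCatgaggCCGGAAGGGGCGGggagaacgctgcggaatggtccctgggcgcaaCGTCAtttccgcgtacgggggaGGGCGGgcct
NEDD4 (chr15:55993661-55993862, minus strand): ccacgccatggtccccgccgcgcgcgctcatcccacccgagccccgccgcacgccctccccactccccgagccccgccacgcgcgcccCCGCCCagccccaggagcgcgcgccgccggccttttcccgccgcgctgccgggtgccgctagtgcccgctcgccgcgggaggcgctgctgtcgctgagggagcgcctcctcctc
C5 (chr9:121050276-121050525, minus strand): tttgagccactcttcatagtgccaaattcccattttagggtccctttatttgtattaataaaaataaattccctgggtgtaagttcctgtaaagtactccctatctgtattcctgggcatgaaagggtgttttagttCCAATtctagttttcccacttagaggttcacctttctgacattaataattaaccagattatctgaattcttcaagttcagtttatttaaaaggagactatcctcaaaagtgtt
ADARB2 (chr10:1737526-1737775, minus strand): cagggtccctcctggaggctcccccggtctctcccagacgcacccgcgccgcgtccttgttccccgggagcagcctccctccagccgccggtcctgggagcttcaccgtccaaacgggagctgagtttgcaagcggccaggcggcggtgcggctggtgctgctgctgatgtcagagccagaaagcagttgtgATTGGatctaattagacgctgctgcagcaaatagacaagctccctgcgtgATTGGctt
The 250 bases before the start of APMAP held 4 GC boxes (GGGCGG), of which the one beginning 141 bases upstream overlaps an ETS site (CCGGAAG, in 8.48% of windows) and the one at 70 adjoins another. PDE4B held 1 ETS site. PITHD1, NEDD4 and PDE4B had 1 GC box each, and 42.5% of the 34943 RefSeq windows of that length hold this motif. PITHD1 and APMAP each held the core of the cAMP response element, TGACG, in its reverse form, which 21.2% of windows hold. PITHD1 also had a match to the NRF1 site, present in 1.02% of windows. Matches to the CCAAT box (CCAAT, in 32% of windows) were found before ADARB2, at 58 and 8 bases upstream, and before C5. None of the 6 windows held the TATA box TATAAA, the full element TGACGTCA, the AP-1 site TGANTCA or the E-box CACGTG, which 10.8%, 1.63%, 6.59% and 6.32% of windows hold, and this says only that these letters are not in these windows. The window of C5 had a GC content of 34.8% and 0 CpG dinucleotides, while the other 5 had 61.2% to 78% GC, against a median of 58% over all windows.

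Total counts per library were 16065723 to 19173421, and no 2 libraries of a group were close enough to be copies. In 8 of 12 replicate pairs the chi-square statistic over genes was 2.384 to 3.855 times its degrees of freedom. The other 4 pairs, at 6.787 to 10.6 times, all contained scramble replicate 1 of H1299 or of PANC-1, so values without these libraries are given below. HDAC2 was at 77.3, 68.5 and 78.4 CPM in the H1299 libraries labelled as HDAC2 knockdown and at 171, 178 and 187 CPM in H1299 scramble libraries, 2.40-fold lower (log2 fold change -1.26, standard error 0.0654, adjusted p = 5.4e-15, edgeR). Of its class I relatives, HDAC1 passed the adjusted p at a log2 fold change of 0.17 (adjusted p = 0.0286), under the fold of a call, and HDAC3 (0.16) and HDAC8 (-0.06) did not pass. In PANC-1 HDAC2 was at 227 ± 4.63 CPM with FOSL1 shRNA and 215 ± 22.3 CPM with scrambled shRNA (SD, n = 3). It was not called there (log2 fold change 0.05, standard error 0.0666, adjusted p = 0.557, edgeR), and these data hold no measure of HDAC2 protein. FOSL1 was at 170 ± 6.47 CPM against 226 ± 14.0 CPM (SD, n = 3) in PANC-1, and its log2 fold change of -0.43 passed the adjusted p (2.88e-06, edgeR) but not the fold of 0.5. In H1299 FOSL1 moved the other way after HDAC2 knockdown, at 591 ± 26.0 CPM against 446 ± 32.0 CPM. Its log2 fold change there was 0.40 (adjusted p = 4.41e-06, edgeR), also under the fold of a call. Of 5 lung epithelial markers, only NKX2-1 reached a mean of 1 CPM in both H1299 groups, and SFTPA1 was at 0 in all 6 of these libraries. All 4 pancreatic duct markers did so in both PANC-1 groups. Their sum was higher in the knockdown libraries of both lines, at 183 to 196 against 160 to 167 CPM in H1299, where 2 of the 4 reached 1 CPM, and at 641 to 655 against 563 to 630 CPM in PANC-1. Different members made up these rises. In H1299 SOX9 was higher (179 to 192 against 153 to 160 CPM) and MUC1 was lower (3.84 to 4.1 against 6.43 to 6.72 CPM). In PANC-1 SOX9 and PDX1 overlapped between the groups, and MUC1 was higher (21.1 to 22.1 against 15.5 to 18.4 CPM), as was KRT19. Other marker sums were lower, with knockdown first: 6 epithelial markers at 345 to 365 against 548 to 610 CPM in H1299 and 1550 to 1590 against 2020 to 2580 CPM in PANC-1 (where KRT19, which both lists hold, was higher, at 369 to 378 against 297 to 346 CPM), and 4 fibroblast markers at 4.24 to 4.39 against 5.75 to 7.03 CPM in H1299 and 74.6 to 81.2 against 225 to 283 CPM in PANC-1. Their part in the values of the 6 genes was not tested.

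In H1299 the 6 genes were 1.77-fold to 2.36-fold higher in HDAC2 knockdown libraries than in scramble libraries, and for each of them the 3 knockdown libraries were above all 3 scramble libraries. Over all 16465 genes tested in H1299, 18.3% had groups apart in that direction, and 1.45% (238 genes) were called higher (7.06% in either direction) at an adjusted p under 0.05 and a log2 fold change over 0.5. As the members were picked by these values, the counts are a description. There were 110 called rises at 5 CPM or more with no overlap of the groups, and among them the 6 took places 1 (ADARB2), 3 (PITHD1), 5 (NEDD4), 8 (APMAP), 9 (PDE4B) and 10 (C5). The places between were those of SLC1A3 (log2 fold change 1.12), COL13A1 (0.95), NR4A3 (0.93) and THBS1 (0.87), and the next below C5 (0.82) was PHTF2 (0.82). By level, ADARB2 at a mean of 7.05 CPM and C5 at 8.17 CPM were the nearest of the 6 to the limit of 5 CPM, and SLC1A3 (5.6 CPM) and NR4A3 (5.91 CPM) were nearer. Below that limit 123 further genes were called with groups apart, and 33 of them had a larger log2 fold change than ADARB2.

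PITHD1 and APMAP rose after FOSL1 knockdown in PANC-1 as well, 2.46-fold and 3.01-fold. PITHD1 was at 40.7, 42.6 and 40.1 CPM in H1299 with HDAC2 shRNA and at 22.8, 19.3 and 17.0 CPM in H1299 with scrambled shRNA. In PANC-1 it was at 58.7, 59.5 and 63.2 CPM with FOSL1 shRNA and at 23.7, 22.9 and 25.8 CPM with scrambled shRNA. In both lines the lowest knockdown library was well above the highest scramble library. The log2 fold change was 1.06 (standard error 0.0902) in H1299 and 1.30 (standard error 0.0823, adjusted p = 3.38e-12, edgeR) in PANC-1. Without scramble replicate 1 the log2 fold change of PITHD1 was 1.17 in H1299 and 1.32 in PANC-1. Its highest level was that of PANC-1 knockdown cells, followed by H1299 knockdown cells, and both scramble groups lay close together, at 24.2 ± 1.47 CPM in PANC-1 and 19.7 ± 2.89 CPM in H1299 (SD, n = 3). In such bulk libraries, more cells that express a gene and more RNA of it per cell cannot be told apart.
APMAP was the most abundant of the 6, at 81.6, 75.8 and 79.4 CPM in H1299 with HDAC2 shRNA and 45.2, 43.0 and 41.8 CPM with scrambled shRNA. The PANC-1 libraries had 210, 220 and 218 CPM with FOSL1 shRNA and 77.0, 70.0 and 64.6 CPM with scrambled shRNA. Every knockdown library of a line was again above every scramble library of that line, although PANC-1 scramble and H1299 knockdown libraries overlapped. Its log2 fold change was 0.86 (standard error 0.0688) in H1299 and 1.59 (standard error 0.0684, adjusted p = 1.77e-15, edgeR) in PANC-1. The 3 PANC-1 knockdown libraries were thus the highest of all 12. Without scramble replicate 1 the log2 fold change of APMAP was 0.89 in H1299 and 1.69 in PANC-1. An antisense lncRNA, AL035661.2, shares 7.1% of the exon bases of APMAP, but had at most 3 counts in any library.

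**Figure D1:**
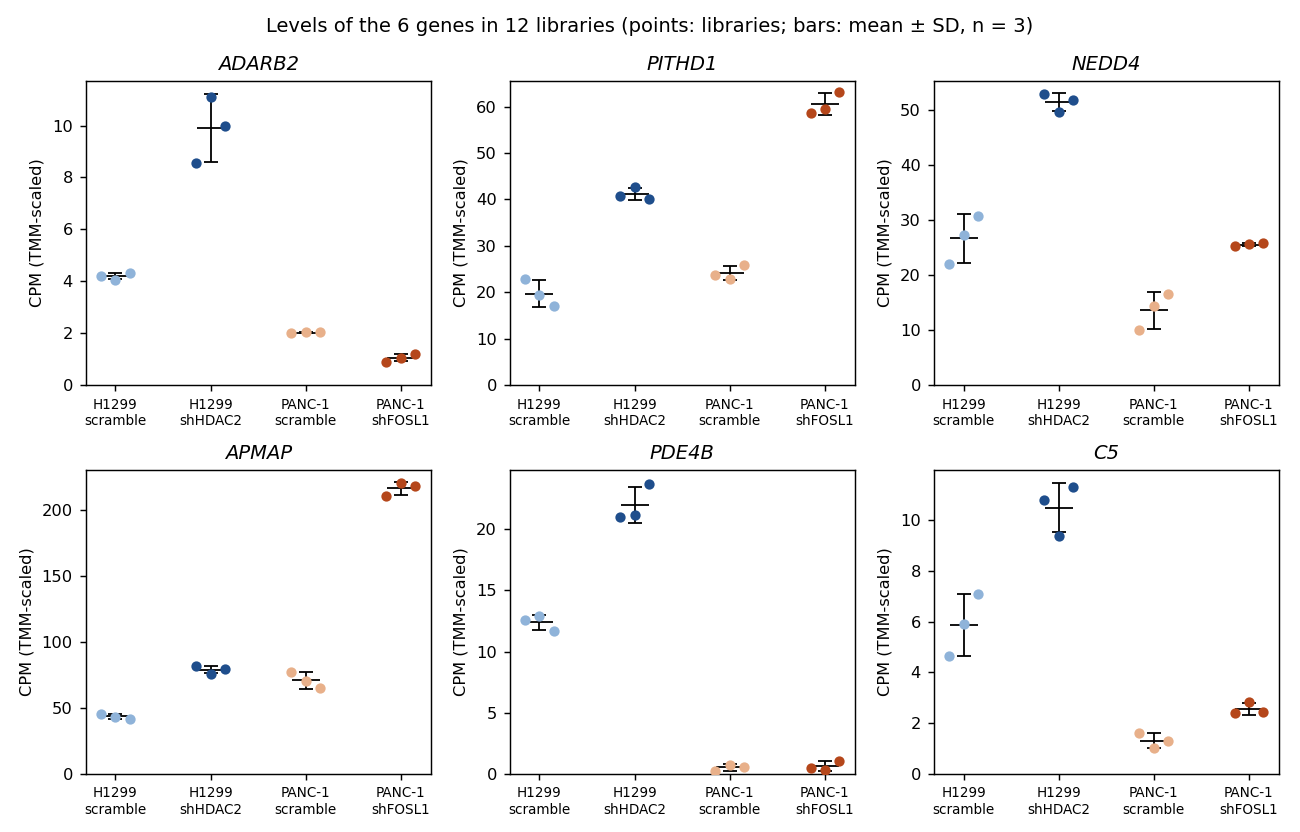
Level of each of the 6 genes (y axis, CPM with TMM-scaled totals, linear from 0) in H1299 and PANC-1 cells with scrambled shRNA or a knockdown shRNA (x axis), with 1 point per library and a bar for the mean and SD (n = 3). Both knockdown groups lie above their own scramble group for PITHD1, NEDD4, APMAP and C5, while ADARB2 is lower in PANC-1 knockdown libraries and PDE4B is near 0 in PANC-1.

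NEDD4 and C5 were the other genes that were higher in both lines, and for both the rise in PANC-1 passed the test. For NEDD4 the H1299 libraries had 52.8, 49.6 and 51.7 CPM with HDAC2 shRNA and 22, 27.2 and 30.7 CPM with scrambled shRNA. In PANC-1 the levels were 25.3, 25.6 and 25.7 CPM with FOSL1 shRNA and 9.94, 14.3 and 16.5 CPM with scrambled shRNA. Knockdown libraries were close to each other and scramble libraries were spread, with scramble replicate 1 the lowest in both lines. The log2 fold changes were 0.94 (standard error 0.0897) in H1299 and 0.88 (standard error 0.129, adjusted p = 3.73e-06, edgeR) in PANC-1. Without scramble replicate 1 they were 0.82 and 0.73, and the call in PANC-1 remained (adjusted p = 1.62e-08). The PANC-1 knockdown libraries lay within the range of the H1299 scramble libraries.
C5 was a gene of low counts, with 160 to 214 reads in H1299 knockdown, 85 to 140 in H1299 scramble, 40 to 48 in PANC-1 knockdown and 19 to 30 in PANC-1 scramble libraries. This gave 10.8, 9.37 and 11.3 CPM against 4.65, 5.92 and 7.08 CPM in H1299, and 2.40, 2.82 and 2.43 CPM against 1.61, 1.01 and 1.30 CPM in PANC-1. No knockdown library fell among the scramble libraries of its line, and all 4 groups were apart from each other, with both H1299 groups above both PANC-1 groups. Its log2 fold change was 0.82 (standard error 0.145) in H1299 and 0.93 (standard error 0.269, adjusted p = 0.00546, edgeR) in PANC-1. Without scramble replicate 1 the value was 0.68 in H1299 and 1.14 in PANC-1. The exons of C5 share 2.42% of their bases with CNTRL on the opposite strand, which was not called in either line (log2 fold change 0.14 and -0.04). The summed level of 5 liver markers also differed between the H1299 groups, at 36.2 to 40.6 CPM with HDAC2 shRNA and 29.4 to 30.4 CPM with scrambled shRNA, of which SERPINA1 made nearly all. In both H1299 groups APOB and TTR were at 0, 1 of the 5 markers reached 1 CPM, and the part of such cells in the C5 value was not tested.

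ADARB2 went the other way in PANC-1, where it fell 1.95-fold. It was at 8.54, 11.1 and 10.0 CPM in H1299 with HDAC2 shRNA and at 4.21, 4.06 and 4.30 CPM with scrambled shRNA. The PANC-1 libraries had 0.90, 1.06 and 1.19 CPM with FOSL1 shRNA (15 to 21 reads) and 1.99, 2.03 and 2.04 CPM with scrambled shRNA (37 to 39 reads). All 4 groups were apart, in the order H1299 knockdown, H1299 scramble, PANC-1 scramble and PANC-1 knockdown. The log2 fold change was 1.24 (standard error 0.146) in H1299 and -0.96 (standard error 0.29, adjusted p = 0.00768, edgeR) in PANC-1. Without scramble replicate 1 it was 1.24 in H1299 and -0.94 in PANC-1. ADARB2 is best known from neurons, and the summed level of 5 neuronal markers was 51.8 to 54.2 CPM against 47.1 to 50.5 CPM in H1299 and 15 to 16.8 CPM against 26.8 to 30.7 CPM in PANC-1, each knockdown first. In H1299 SNAP25 was higher (23.6 to 26.0 against 19.4 to 20 CPM), SYT1 was lower (9.38 to 10.6 against 11.3 to 13.9 CPM) and GAD1 overlapped between the groups. Of these markers 3 reached 1 CPM in each H1299 group and 2 and 4 in PANC-1 knockdown and scramble cells, GAD2 was at 0 in all 12 libraries, and the part of this list in the ADARB2 values was not tested.
PDE4B could not be followed in PANC-1, where it had 4 to 19 reads per library. In H1299 it was at 21.0, 21.2 and 23.7 CPM with HDAC2 shRNA and at 12.6, 12.9 and 11.7 CPM with scrambled shRNA. PANC-1 had 0.48, 0.294 and 1.07 CPM with FOSL1 shRNA and 0.215, 0.746 and 0.574 CPM with scrambled shRNA. The H1299 groups were apart and the PANC-1 groups overlapped. Its log2 fold change was 0.83 (standard error 0.0991) in H1299, and in PANC-1 a change was not detectable at this depth (0.25, standard error 0.512, adjusted p = 0.709, edgeR). Without scramble replicate 1 the H1299 value was 0.84. In PANC-1 the sign turned when FOSL1 shRNA replicate 3 (-0.42) or scramble replicate 1 (-0.08) was left out. PDE4B is also abundant in white blood cells, and 5 blood cell markers summed to 0.586 to 0.836 CPM in H1299 knockdown and 0.62 to 1.11 CPM in H1299 scramble libraries. None of these markers reached a mean of 1 CPM in H1299, with PTPRC at 0 in the knockdown and CD3E at 0 in the scramble libraries.

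Thus 4 of the 6 genes rose in PANC-1, 1 fell and 1 was not called, where 10.6% of the 16345 genes tested there were called higher and 15.8% lower (26.5% in either direction). As the 6 were taken from the first 10 places with earlier results of these data known, their share is a description. The median PANC-1 log2 fold change of the 6 was 0.91, and that of all genes tested was -0.02. Groups were apart in PANC-1 with the knockdown higher for 4 of the 6 (29.1% of all genes) and lower for 1 (28.3%). The other rises in H1299 did not share one direction in PANC-1. Of the 104 rises of at least 5 CPM beside the 6, 91 were tested in PANC-1, and 20 of them (22%) rose and 24 (26.4%) fell, with a median log2 fold change of 0.02. Among genes with at least 5 CPM in H1299, 10.6% were called higher and 10.8% lower in PANC-1. The 4 genes that share the first 10 places with the 6 went down or were too low. COL13A1, a membrane collagen, fell from 15.9 to 2.49 CPM and THBS1, the matrix protein thrombospondin 1, from 3.25 to 2.04 CPM, while the glutamate transporter SLC1A3 and the nuclear receptor NR4A3 did not pass the filter on low counts. The call of THBS1 was lost without scramble replicates 2 or 3 or FOSL1 shRNA replicates 1 or 3, over a range of -0.99 to -0.49 on the log2 scale. PHTF2 and the cyclin gene CCNJ, at places 11 and 12, rose (log2 fold changes 0.98 and 1.84). The next places did not continue this. KCNJ2 at place 13 was not tested in PANC-1, and GNB1L at place 14 (-0.05) was not called. SHH at place 15 (-0.27) passed the adjusted p (0.0429, edgeR) but not the fold of a call. As both lines carry the scrambled hairpin in their controls, its sequence is given with that of the FOSL1 hairpin in the study's list, which gives it no number, and the part that pairs with the guide's seed (bases 2 to 8) is in capitals. The sequence of the HDAC2 hairpin is not given in the sources used here.
Scramble target: cgtacgcggaaTACTTCGa
FOSL1 shRNA target: gagctgcagtgGATGGTAc
The scramble seed site, TACTTCG, was in the 3′ UTR of the MANE Select transcript of 0 of the 6 genes and of 1.37% of 12173 genes tested in both lines. The FOSL1 seed site, GATGGTA, was in 0 of the 6 and in 7.91% of these genes. Such a match is a count of letters, and its bearing on the levels was not tested.

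**Figure D2:**
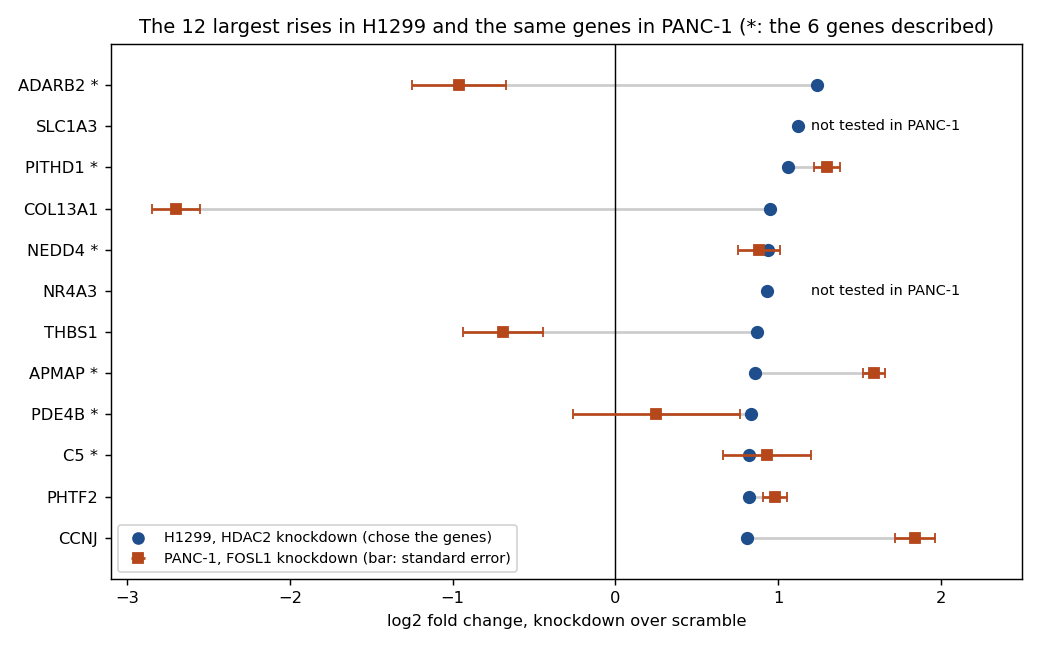
Log2 fold change of knockdown over scramble (x axis) for the 12 largest rises in H1299 (y axis, largest at the top, * for the 6 genes described), with H1299 as circles and PANC-1 as squares with the standard error. PITHD1, NEDD4, APMAP, C5, PHTF2 and CCNJ lie to the right of 0 in both lines, and ADARB2, COL13A1 and THBS1 lie on opposite sides.

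Of 68 relatives and pathway partners in 7 lists, 39 were tested in H1299, the line to which all values of this paragraph belong. Of these, 2 were called higher and 3 lower after HDAC2 knockdown (against 1.45% and 5.61% of all genes). Their median log2 fold change was -0.03 against -0.005 over all genes. The lists were written with earlier results of these data known. The active editing enzymes ADAR (log2 fold change 0.10) and ADARB1 (-0.27), the PITHD1 relative TXNL1 (0.11) and the paraoxonase PON2 (-0.03) were not called. Of 9 tested ligases and adaptors of the NEDD4 family, HECW2 (-0.94, adjusted p = 0.0384, edgeR) fell, from 1.65 ± 0.425 to 0.849 ± 0.174 CPM (SD, n = 3). Its call was lost without any 1 of the 3 HDAC2 shRNA libraries or without scramble replicates 1 or 2 (log2 fold change -1.06 to -0.79). The other 8 were not called, among them the closest paralog NEDD4L (0.08), ITCH (-0.09) and SMURF1 (-0.08). Of 9 other cAMP phosphodiesterases, PDE10A fell (-0.75, adjusted p = 0.00244, edgeR), and the PDE4 relatives PDE4A (-0.12) and PDE4D (-0.18) were not called. Of 11 complement genes beside C5, the protease gene CFD fell (-0.74, adjusted p = 7.64e-05, edgeR) and none rose. The complement regulators CD46 (0.08), CD55 (-0.06) and CD59 (0.04) were not called. Of 6 genes that respond to cAMP, NR4A3 rose (0.93, adjusted p = 4.15e-05, edgeR), and FOS (0.50) was just past the fold of a call, while NR4A1 (0.22), NR4A2 (0.30), CREM (0.15) and PER1 (0.13) were not called. FOS dropped below that fold without H1299 scramble replicate 1 (0.45) and without HDAC2 shRNA replicates 1 (0.46) or 2 (0.47).

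In PANC-1 5 of 46 tested relatives rose and 15 fell, against 10.6% and 15.8% of all genes, with a median log2 fold change of -0.14. Around NEDD4 the ligase WWP2 rose (0.67), and HECW1 (-1.64), HECW2 (-1.18) and the adaptor NDFIP2 (-0.61) fell, while NEDD4L (-0.15) was not called. Around C5 the protease MASP2 (1.32), the receptor C5AR1 (0.77) and C4A (0.86), which may share reads with its near copy C4B, rose. The complement inhibitors CD55 (-1.61), CLU (-1.29) and VTN (-1.97) fell, as did C1R (-1.20), C1S (-1.20) and C2 (-1.28). The regulators CD46 (0.23) and CD59 (-0.22) passed the adjusted p in opposite directions (0.00554 and 0.00292, edgeR), under the fold of a call. Of the cAMP phosphodiesterases PDE3B rose (0.57) and PDE2A fell (-1.08). The cAMP response genes PER1 (-1.79), NR4A1 (-1.64), NR4A2 (-1.01) and FOS (-0.59) fell. ADAR (-0.25), ADARB1 (-0.14), TXNL1 (0.07) and PON2 (0.30) were not called, and PON3 fell (-1.04). The calls of HECW1 (without scramble replicate 2 or FOSL1 shRNA replicate 2), C2 (without FOSL1 shRNA replicates 1 or 2), C5AR1 (without scramble replicate 1 or FOSL1 shRNA replicate 2), PDE3B (without scramble replicate 1) and FOS (without FOSL1 shRNA replicate 3) were each lost with the library named left out. Over all 6 such fits their log2 fold changes were -2.14 to -1.07, -1.72 to -1.05, 0.50 to 1.01, 0.48 to 0.69 and -0.63 to -0.48. C4A (0.65 to 1.13) kept its call only without scramble replicate 1.

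**Figure D3:**
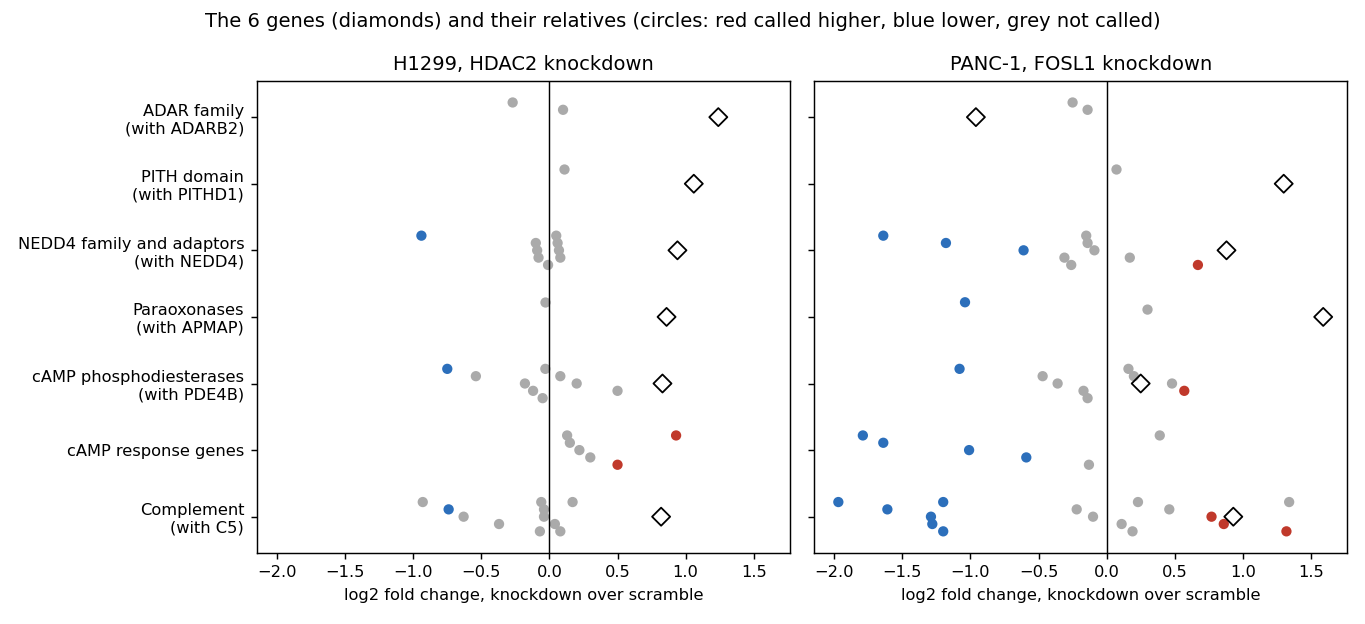
Log2 fold change of knockdown over scramble (x axis) for the relatives of the 6 genes by list (y axis), in H1299 on the left and PANC-1 on the right. Circles are relatives, red where called higher, blue where called lower and grey where not called, and diamonds are the 6 genes. In H1299, where the 6 genes were chosen for their rise, each diamond lies to the right of all circles of its list.

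The nearest protein-coding genes on each side of the 6, and genes whose exons overlap them, came to 15. Of these 10 were tested in H1299, where 1, LEPR, was called higher and 0 lower by edgeR (against 1.45% and 5.61% of all genes), and 3 passed the adjusted p. LEPR, the leptin receptor gene, lies 151 kb from PDE4B on the same strand and was at 8.59 CPM with HDAC2 shRNA and 5.07 CPM with scrambled shRNA (log2 fold change 0.76, adjusted p = 0.000349, edgeR). On either side of PITHD1, ELOA (0.17) and LYPLA2 (-0.03), the latter only 2.91 kb away, were not called. Next to NEDD4, PRTG (0.03) and RFX7 (-0.04) were not called. TRAF1, 3.81 kb from C5, passed the adjusted p in the opposite direction (-0.44, adjusted p = 0.000191), under the fold of a call, and WDR37 next to ADARB2 passed it at 0.33 (adjusted p = 0.00841), as 22.4% of all genes did in H1299. Without HDAC2 shRNA replicate 2 TRAF1 was called lower (-0.54). The neighbours of APMAP, CST7 and ACSS1, had at most 15 counts in any H1299 library and were not tested there. In PANC-1, 0 of 12 tested neighbours were called higher and 2 lower by edgeR, namely PRTG (-0.86), while NEDD4 beside it rose, and LEPR (-0.84), against 10.6% and 15.8% of all genes. The call of LEPR was lost without FOSL1 shRNA replicate 1 (-0.69) or scramble replicate 3 (-0.66). In total, 7 of the 12 passed the adjusted p, against 50.9% of all genes in PANC-1. The 5 that did so without the fold were LYPLA2 (0.26, adjusted p = 0.0025), WDR37 (0.39, adjusted p = 0.0052), ACSS1 (-0.37, adjusted p = 0.00526), RAB14 (-0.23, adjusted p = 0.0131) and PFKP (-0.16, adjusted p = 0.0148). PFKP, the nearest protein-coding gene on its side of ADARB2, lies 1330 kb away, and RAB14 lies 103 kb from C5.

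**Figure D4:**
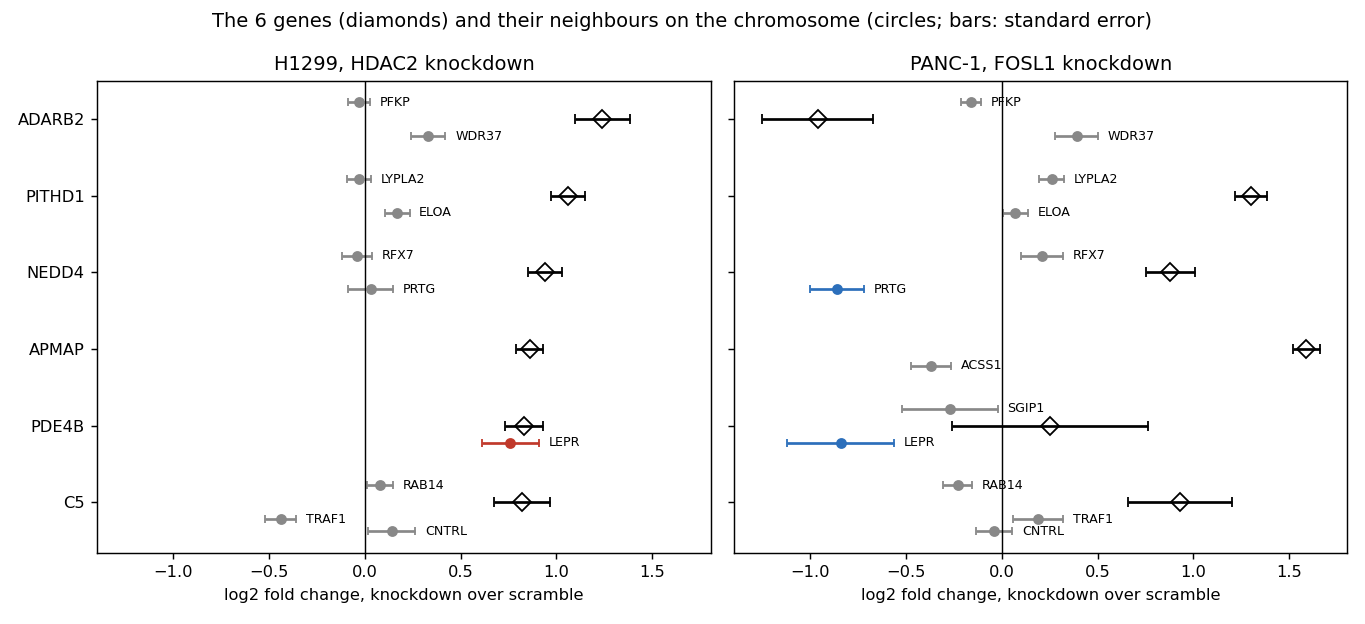
Log2 fold change of knockdown over scramble (x axis) for each of the 6 genes (diamonds, y axis) and its tested neighbours (circles), with standard errors as bars, in H1299 on the left and PANC-1 on the right. Red is called higher, blue lower and grey not called. LEPR beside PDE4B is the neighbour called higher in H1299.

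Levels can be set between genes per length, as CPM per kb of exon. The length was that of all bases in an exon of any annotated transcript of the gene. It was 16.89 kb for C5, 10.57 kb for ADARB2 and 8.93 kb for PDE4B. The order holds for this length only, and the spreads do not cover the choice of length. In H1299 scramble cells the order was APMAP (19.5 ± 0.768, SD, n = 3), PITHD1 (9.08 ± 1.33), NEDD4 (2.95 ± 0.484), PDE4B (1.39 ± 0.0697), ADARB2 (0.397 ± 0.0114) and C5 (0.348 ± 0.0721), and the last pair did not differ beyond its spread. In PANC-1 scramble cells the same scale gave APMAP (31.7), PITHD1 (11.1), NEDD4 (1.5), ADARB2 (0.191), C5 (0.0776 ± 0.0177) and PDE4B (0.0573 ± 0.0304), and the last pair again did not differ beyond its spread. Over the 12 libraries the log2 CPM of the 6 genes are described by their correlations, to which the differences between the 4 groups contribute. PITHD1 and APMAP had a Pearson correlation of 0.91 with each other. ADARB2, NEDD4, PDE4B and C5 had 0.72 to 0.93 among themselves, and between both sets the values were -0.56 to 0.37. The genes with the highest Pearson correlation over these libraries were FBXW11 (0.965) for PITHD1, RPS6KB2 (0.986) for APMAP, CUL3 (0.984) for NEDD4, RIDA (0.985) for C5, JAG1 (0.988) for ADARB2 and SLC25A13 (0.998) for PDE4B. RBM8A (0.961) and TTC12 (0.95) came next for PITHD1, RAB1A (0.977) and RGS10 (0.976) for APMAP, DNAJC2 and DBF4 (both 0.982) for NEDD4, CNOT6 (0.983) and RBMXL1 (0.981) for C5, EIF3L (0.987) and MRPS27 (0.986) for ADARB2, and NMT2 (0.996) and IDI1 (0.995) for PDE4B. With Spearman correlation 0 of these 18 names came back among the first 3 of a gene.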

How the data were processed

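The submitters' processing notes name STAR 2.7.2b, featureCounts 2.0.1, cutadapt, FastQC and the build GRCh38, and the deposited values are raw counts for 60668 genes in 12 libraries. The strand setting and the annotation release are not given in the sources used here, so reads of antisense partners were not separated. Groups were taken from the sample titles. The members and the lists of genes were chosen with earlier results of these data known.

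Knockdown and scramble libraries were compared within each line in edgeR 4.0.16 (R 4.3.3), with filterByExpr, TMM scaling, group as the only factor and the quasi-likelihood test. Benjamini-Hochberg adjustment covered all genes tested, 16465 in H1299 and 16345 in PANC-1. Calls needed both an adjusted p below 0.05 and a log2 fold change beyond 0.5 in size. An exact permutation test of 3 against 3 has 0.1 as its smallest p and was not used. CPM in the text use TMM factors over all 12 libraries. Replicate counts spread more than counting error, so no interval for a single library is given.

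Named genes were the 6 members, HDAC2, HDAC1, HDAC3 and FOSL1, called or few-member list genes, nearest neighbours, the 10 largest rises in H1299 and the 3 genes most correlated with each member (log2 of CPM + 1, mean of at least 5 CPM). Some list genes that were not called, HDAC8, PHTF2, CCNJ, KCNJ2, GNB1L and SHH were named after their values were seen, as were the motifs and the hairpin seed search. Positions, exon lengths and 3′ UTRs were read from GENCODE release 44 (60295 identifiers matched) and promoters from RefSeq. Alternatives were DESeq2 1.42.0, RLE scaling, 2 other filters, the replicate number as a block, all 12 libraries in 1 fit, an adjusted p alone, raw library totals, Spearman correlation and leaving out each library.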

Additional observations from a re-analysis of the deposited data

How the results depend on the processing

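Under every alternative run, PITHD1, APMAP, NEDD4 and C5 kept their call as higher and ADARB2 its call as lower in PANC-1, with log2 fold changes of 1.275 to 1.366, 1.544 to 1.686, 0.732 to 1.067, 0.797 to 1.136 and -1.053 to -0.856. In H1299 the 6 log2 fold changes lay within 0.678 and 1.332 over the alternatives, which describes the values that chose the genes. PDE4B in PANC-1 ranged from -0.419 to 0.631 with a library left out and was never called. With an adjusted p alone, 1702 genes were higher and 1993 lower in H1299, and 3883 and 4429 in PANC-1. No pairing by replicate number was seen. Deviations of libraries with the same number correlated at -0.113 to 0.14 in H1299 and -0.022 to 0.068 in PANC-1. Those of libraries with different numbers correlated at -0.12 to 0.135 and -0.085 to 0.052. With 3 libraries per group these values cannot exclude a pairing. With the replicate number as a block, 231 genes were called higher and 892 lower in H1299 and 1744 and 2563 in PANC-1. The relatives called higher in H1299 went from 2 to 1 under that block (FOS at 0.498) and with at least 10 counts in every library (FOS at 0.497), and were 1 to 2 with a library left out. HECW2 lost its call in H1299 under the block (adjusted p = 0.0532, edgeR) and in DESeq2 (0.0806). Neighbours called lower were 0 to 1 in H1299 with a library left out (TRAF1 at -0.54 without HDAC2 shRNA replicate 2) and 1 to 2 in PANC-1, where LEPR was lost without FOSL1 shRNA replicate 1 (adjusted p = 0.0678, edgeR) or scramble replicate 3 (0.0897). On raw library totals 16 of 24 group levels of the 6 genes moved by less than 1 SD. Depth limits PDE4B, ADARB2 and C5 in PANC-1, at under 50 reads per library.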
